A study of Saccharomyces cerevisiae with 6 samples.

Results

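The genes described here encode the histones of budding yeast: the core histones H2A (HTA1, HTA2), H2B (HTB1, HTB2), H3 (HHT1, HHT2) and H4 (HHF1, HHF2), the H2A variant H2A.Z (HTZ1) and the linker histone H1 (HHO1). They were chosen by name, with earlier results of these data known. A gene counted as measured where the array annotation assigned it a probe set. Of the 10 listed genes, 9 were measured, among 5449 genes tested in all. HHF2 had no probe set under its own name. The 9 genes had 10 probe sets, since HTA2 had 2.

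Messenger RNA was measured on Affymetrix arrays in 6 samples of Saccharomyces cerevisiae. The 3 samples of a strain with a deletion of BAS1, the gene of a Myb-family activator of purine and histidine synthesis genes, were compared with 3 samples of the wild-type strain FY4. Per the labels, both strains were grown in batch in minimal medium with glucose and harvested in exponential growth at the same density. The labels name neither the strain in which BAS1 was deleted nor the marker used. Whether the replicates came from separate cultures is not said either, and the p-values cover only the spread among these samples, which may be technical.

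Core histones form the protein octamer around which DNA is wrapped in nucleosomes. In yeast each core histone is encoded by a pair of genes, and the genes lie in divergent pairs of H2A with H2B and of H3 with H4, so that both genes of a locus share a promoter region. Their transcription is confined largely to S phase. The Spt10 and Spt21 proteins and the cell-cycle factor SBF activate it, and the HIR complex represses it at every core locus except HTA2-HTB2. H2A.Z replaces H2A in nucleosomes next to many promoters, where the SWR1 complex inserts it. Hho1 is the yeast counterpart of the linker histone H1.

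In the deletion strain 5 of the 9 measured histone genes fell and none rose. The genes that fell were HTA1, HTA2, HTB2, HTZ1 and HHO1, and HTB1, HHT1, HHT2 and HHF1 did not pass the test. The test was limma's moderated test over all 5449 genes with a threshold of 0.05 on the Benjamini-Hochberg adjusted p. By this rule 19.8% of all genes were called lower and 39.6% were called higher in the deletion strain, 59.5% in all. At an unadjusted p under 0.05, limma gave 7 lower and 0 higher histone genes, where 22.3% of all genes were lower and 42.3% higher. The median log2 difference was -0.25 for the 7 measured core genes, against 0.11 for all tested genes. No histone gene was 2-fold lower, a size reached by 62 of all genes. The core histone probe sets were bright, at log2 intensities of 12.43 to 14.14, where the array maxima were 15.03 to 15.16. Changes of very bright probe sets can be understated, and whether these were was not tested. The samples are whole cultures, so fewer cells in S phase and less histone mRNA per cell cannot be told apart.

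Before the histone values, BAS1 itself (YKR099W) was read as a check of the labels. It stood at log2 intensities of 4.86, 4.76 and 4.86 in the deletion arrays, all under the background level, and at 11.18, 10.96 and 11.14 in the wild-type arrays, and was thus at least 31.9-fold lower. Background was taken from probe sets made for genes that the yeast RefSeq table lacks, at their 95th percentile. All histone probe sets were above it in all 6 arrays. Arrays of the same strain correlated across genes at 0.988 to 0.995. The 16 control probe sets for large and small subunit rRNA moved with strain: their median log2 intensity was 10.02 to 11.03 in the deletion arrays and 13.52 to 13.69 in the wild-type arrays. Poly-A spike controls divided the arrays another way, into a low set of deletion replicate 1 with wild-type replicates 1 and 2, and a high set of deletion replicates 2 and 3 with wild-type replicate 3. The part of the rRNA signal in the histone differences was not tested, and the differences within each spike level are given with the results.

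**Figure D1:**
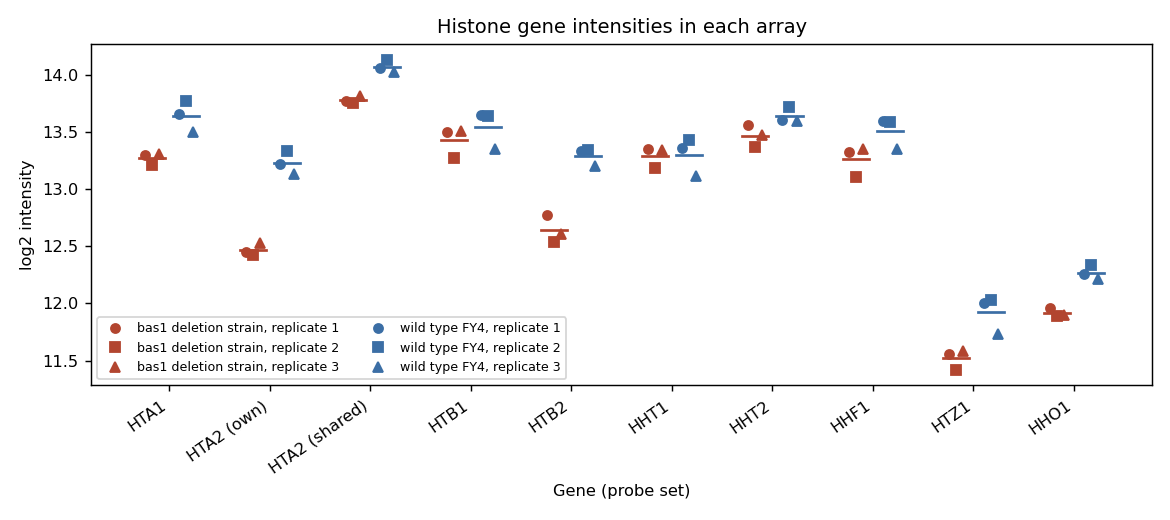
Log2 intensity (vertical axis) of each histone probe set (horizontal axis) in the 3 arrays of the BAS1 deletion strain (red) and the 3 of wild type FY4 (blue), with a line at each group's mean. HTA2 has 2 probe sets: "own", and "shared", whose name marks a match to several transcripts. The groups are apart for HTA1, both HTA2 probe sets, HTB2, HTZ1 and HHO1, narrowly apart for HHT2, and overlap for HTB1, HHT1 and HHF1.

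Among the H2A genes, HTA1 (YDR225W, chromosome IV) had log2 intensities of 13.30, 13.21 and 13.31 in the deletion arrays, against 13.66, 13.77 and 13.50 in the wild-type arrays. All 3 deletion values lay below all 3 wild-type values. HTA1 fell by 0.37 on the log2 scale (SE 0.08, adjusted p = 0.0070), which is 1.29-fold. HTA1 lies beside HTB1, and loss of that locus is known to harm cells more than loss of HTA2-HTB2.

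HTA2 (YBL003C, chromosome II) was read by 2 probe sets that differed in the size of the change. The brighter of them, used for HTA2 in all counts, has a name ending that Affymetrix gives to probe sets matching several transcripts, and the sources used here do not say which ones. It stood at 13.77, 13.75 and 13.81 in the deletion arrays and at 14.06, 14.14 and 14.03 in the wild-type arrays, a log2 difference of -0.30 (SE 0.05, adjusted p = 0.0026). The probe set without that ending stood at 12.45, 12.43 and 12.53 in the deletion arrays and at 13.22, 13.34 and 13.14 in the wild-type arrays. Its log2 difference was -0.76 (SE 0.07), a 1.70-fold fall, with an adjusted p of 1.6e-04 when it stood for HTA2 among the 5449 genes, a choice made after seeing the data. Neither probe set had overlapping groups, and the fall was smaller on the brighter one. How far the brighter one reads HTA2 or other transcripts was not tested, nor was the cause of the smaller fall.

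Of the H2B genes, HTB2 passed the test and HTB1 did not. HTB2 (YBL002W, chromosome II), the neighbour of HTA2, had log2 intensities of 12.77, 12.54 and 12.60 in the deletion arrays and 13.33, 13.34 and 13.20 in the wild-type arrays. The groups were apart by more than the range within either, and HTB2 fell 1.57-fold (log2 difference -0.65, SE 0.08, adjusted p = 6.4e-04), the largest fall of the 9 genes as counted here. Ordered from the most lowered, it was number 159 of the 5449 genes. HTB1 (YDR224C, chromosome IV), the neighbour of HTA1, had 13.50, 13.27 and 13.51 in the deletion arrays and 13.65, 13.64 and 13.35 in the wild-type arrays. These groups overlapped. The log2 difference of HTB1 was -0.12 with a 95% interval from -0.38 to 0.14 (adjusted p = 0.37), so a fall as large as that of HTB2 lies outside the interval. The difference was -0.043 without deletion replicate 2 and -0.22 without wild-type replicate 3 (adjusted p = 0.082).

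Neither H3 gene passed the test. HHT1 (YBR010W, chromosome II) stood at 13.35, 13.19 and 13.34 in the deletion arrays and at 13.36, 13.43 and 13.12 in the wild-type arrays, with both groups spread over the same range. Its log2 difference was -0.0090, with a 95% interval from -0.24 to 0.22 (adjusted p = 0.94). The sign of that value turned under some alternative settings. HHT2 (YNL031C, chromosome XIV) had 13.56, 13.37 and 13.47 in the deletion arrays and 13.60, 13.72 and 13.59 in the wild-type arrays. The groups did not overlap, by a narrow gap of 0.032, and the log2 difference was -0.17 (SE 0.07, adjusted p = 0.069). For H4, HHF1 (YBR009C, chromosome II) stood at 13.32, 13.11 and 13.36 in the deletion arrays and at 13.60, 13.59 and 13.35 in the wild-type arrays. Its log2 difference was -0.25 (SE 0.10, adjusted p = 0.065), and its groups overlapped through wild-type replicate 3. The HHF1 probe set also carries the name ending for several transcripts, and the sources used here do not say whether it reads HHF2. The H3 genes encode the same protein, as do the H4 genes, and how far their probe sets share signal was not tested.

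The variant and the linker histone both fell. HTZ1 (YOL012C, chromosome XV) had log2 intensities of 11.56, 11.42 and 11.58 in the deletion arrays and 12.00, 12.03 and 11.73 in the wild-type arrays, a log2 difference of -0.40 (SE 0.09, adjusted p = 0.011), or a 1.32-fold fall. HHO1 (YPL127C, chromosome XVI) had 11.96, 11.89 and 11.90 in the deletion arrays and 12.26, 12.33 and 12.22 in the wild-type arrays. It fell 1.28-fold (log2 difference -0.35, SE 0.05, adjusted p = 0.0016). Both genes had groups that did not overlap. In all, 6 of the 9 histone genes lay lower in every deletion array than in any wild-type array, which held for 23.7% of all tested genes. None lay higher in every deletion array, which held for 43.7% of all tested genes. Intensities of different probe sets are not set against each other as levels, since each binds its own transcript differently.

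**Figure D2:**
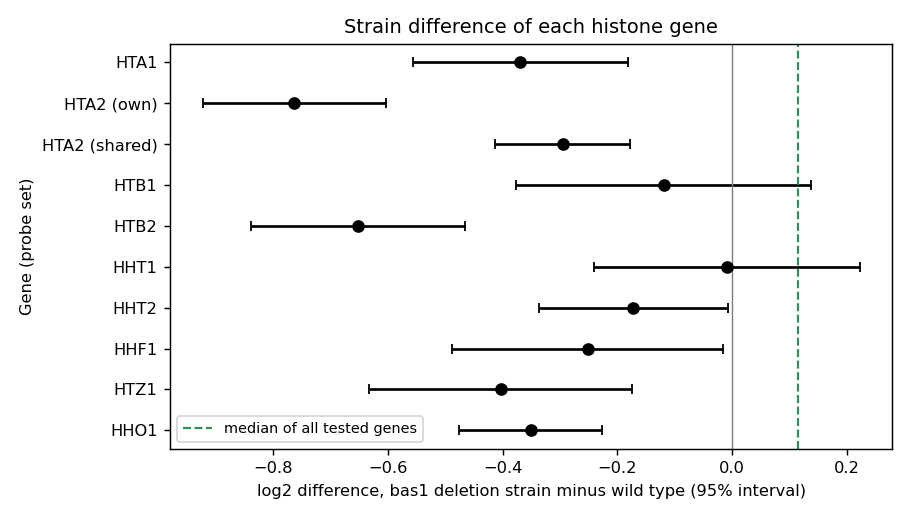
Log2 difference of each histone probe set, BAS1 deletion strain minus wild type (horizontal axis), with limma's unadjusted 95% interval; genes run down the vertical axis. The dashed line marks the median of all tested genes, 0.11. HTA2 on its own probe set (-0.76) and HTB2 (-0.65) lie farthest to the left, and only the intervals of HTB1 and HHT1 include 0.

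The scale on which these differences stand matters, because the median over all tested genes was 0.11 and not 0. Relative to that median the differences were -0.77 for HTB2, -0.52 for HTZ1, -0.48 for HTA1, -0.47 for HHO1 and -0.41 for HTA2. Centring each array on its median, which puts the median of all differences at -0.040, called 7 histone genes lower, and quantile normalization also called 7. Centring also called more genes lower over the whole array, 33.1% lower and 27.2% higher, and quantile normalization 35.5% lower and 24.9% higher. The added calls were HHT2 (adjusted p = 0.0073 and 0.021) and HHF1 (adjusted p = 0.0093 and 0.015). HTB1 and HHT1 were called under neither, at adjusted p of 0.054 and 0.157 after centring. Within the low-spike arrays alone 2 histone genes were called, HTB2 (-0.56) and HTZ1 (-0.46), and within the high-spike arrays alone 2 were called, HTB2 (-0.63) and HHO1 (-0.32). Both fits compare 2 arrays with 1, and the lone array is taken to vary as the rest do. The 5 genes called over all 6 arrays had negative differences in both sets.

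Whether paralogs changed unequally was asked with the log2 ratio of one gene over the other in each array, which removes shifts shared by a whole array. HTB2 over HTB1 was -0.73, -0.73 and -0.90 in the deletion arrays and -0.31, -0.30 and -0.15 in the wild-type arrays. The ratio was lower in each deletion array, by 0.53 on average (SE 0.08), or 1.45-fold. HTA2 on its own probe set over HTA1 was -0.85, -0.78 and -0.78 in the deletion arrays and -0.43, -0.43 and -0.37 in the wild-type arrays, a difference of -0.39 (SE 0.03). With this probe set, both genes of the HTA2-HTB2 locus had lower ratios to their paralogs in the deletion arrays. On the brighter HTA2 probe set the groups overlapped, with a difference of 0.074 (SE 0.05). HHT2 over HHT1 was 0.21, 0.18 and 0.13 in the deletion arrays and 0.24, 0.29 and 0.48 in the wild-type arrays, without overlap, and the difference was -0.16 (SE 0.08). The low-spike arrays gave -0.057, the high-spike arrays -0.32, and the arrays without wild-type replicate 3 -0.092.

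Neighbours at 1 locus were compared in the same way. HTA1 over HTB1 differed by -0.25 (SE 0.06), with -0.20, -0.065 and -0.19 in the deletion arrays and 0.0084, 0.13 and 0.15 in the wild-type arrays, so the ratio was lower in each deletion array. HTA2 on its own probe set over HTB2 overlapped between strains, at -0.17 ± 0.14 in the deletion strain and -0.059 ± 0.053 in wild type (SD, n = 3 each). With the brighter HTA2 probe set, the ratio of HTA2 over HTB2 did not overlap between strains. It was higher in each deletion array, with a mean difference of 0.36 (SE 0.08). The answer for this locus thus depended on the HTA2 probe set. HHT1 over HHF1 was higher in each deletion array, by 0.24 on average (SE 0.04). The HHF1 probe set carries the name ending for several transcripts, so this ratio may not compare genes of 1 locus alone. An exact two-sided permutation test of 3 against 3 arrays cannot give a p below 0.1. It gave 0.1 for 6 of the 8 ratios examined, 0.133 after adjustment over the 8, so none of these differences passes a threshold of 0.05. A ratio shows unequal change and does not say which gene moved.

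**Figure D3:**
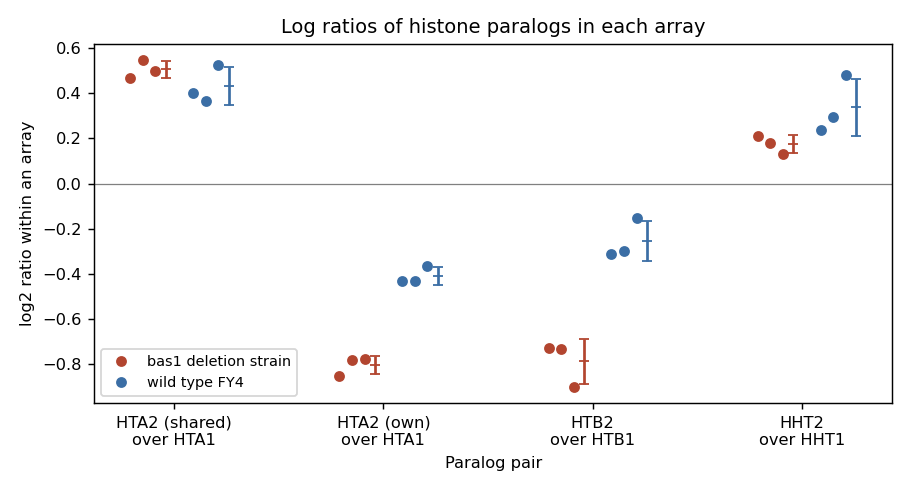
Log2 ratio of paralogous histone genes within an array (vertical axis) for 4 pairings (horizontal axis), in the BAS1 deletion strain (red) and wild type FY4 (blue). Points are arrays, and bars show the mean and SD of 3. HTB2 over HTB1 and HTA2 (own probe set) over HTA1 are lower in each deletion array, while HTA2 (shared probe set) over HTA1 overlaps.

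The histone genes also varied together among replicates. Deletion replicate 2 was the lowest of its strain for 9 of 9 histone genes, and wild-type replicate 3 was the lowest of its strain for 9 of 9. Of all tested genes, 17.1% were lowest in both of these arrays. Over the 21 pairs of measured core genes, the correlation of the deviations from the strain means had a median of 0.78 and ran from 0.35 to 0.99 over 6 arrays, as a description, since all genes of an array share its RNA. The measured core genes and HTZ1 are short, from 312 to 411 bases in the RefSeq table, and HHO1 has 777 bases. Short genes in general were low in the same 2 arrays: genes of up to 450 bases had a median deviation of -0.15 in deletion replicate 2 and of -0.24 in wild-type replicate 3. Genes over 1800 bases had 0.043 and 0.026 there.

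Between strains, the 537 genes of up to 450 bases had a median log2 difference of 0.23, and 13.4% of them were called lower, against 24.2% of genes over 1800 bases. The part of gene length in the histone differences was not tested. S-phase replication genes did not share the replicate course, with median deviations of 0.046 in deletion replicate 2 and 4.6e-05 in wild-type replicate 3. Leaving out deletion replicate 2 left 5 histone genes called lower, leaving out wild-type replicate 3 gave 6, with HHF1 added (adjusted p = 0.023), and leaving out deletion replicate 1 gave 6, with HHT2 added (adjusted p = 0.043).

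**Figure D4:**
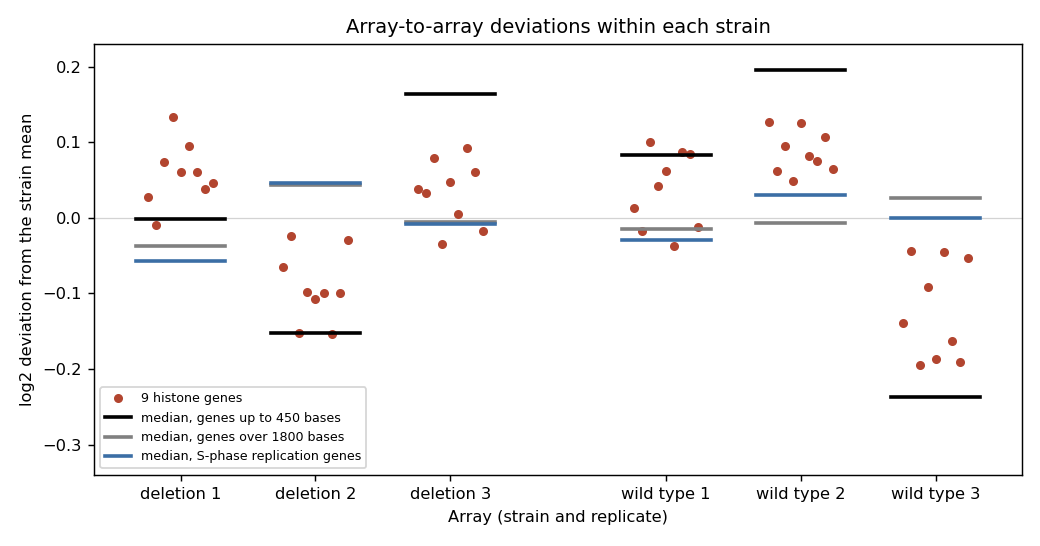
Deviation of log2 intensity from the strain mean (vertical axis) in each array (horizontal axis) for the 9 histone genes (red points), with bars at the median of genes up to 450 bases (black), of genes over 1800 bases (grey) and of S-phase replication genes (blue). The 9 histone genes are all below 0 in deletion replicate 2 and wild-type replicate 3, as is the median of short genes.

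The profile over the 6 arrays most like the mean of the measured core histone genes belonged to RPS13, a ribosomal protein gene (Pearson r = 0.995), followed by RPL14A, another ribosomal protein gene (0.989), and GAL2, a galactose permease gene (0.989). RPS13 had a mean of 14.12 in the deletion strain and 14.29 in wild type. GAL2 was dim, with means of 6.51 and 7.11, where the background over all arrays was 6.09. Among 5440 genes outside the list, 168 had an r above 0.9, so such likeness was not rare over 6 arrays of 2 strains.

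Regulators of histone genes were examined next. Of 16 such genes, 6 fell and 1 rose, with a median log2 difference of -0.034, beside 19.8% lower and 39.6% higher over all genes. SWI6, which encodes a subunit of SBF and MBF, fell most (log2 difference -0.52, SE 0.08). HIR2 and HPC2, for subunits of the repressive HIR complex, fell by 0.46 and 0.37 on the log2 scale. RTT106, a histone chaperone gene that acts with HIR, fell by 0.35. SPT21 fell by 0.30, with 9.30, 9.31 and 9.47 in the deletion arrays against 9.60, 9.69 and 9.67 in the wild-type arrays, and the checkpoint kinase gene RAD53 fell by 0.26. HIR3 rose by 0.15, but its difference was -0.0051 after array centring and was negative after quantile normalization and cyclic loess as well. SPT10 (0.063), SWI4 (-0.013), HIR1 (-0.011) and ASF1 (-0.020) did not pass. After quantile normalization and cyclic loess SPT10 was called lower (-0.30 and -0.20). HIR1 was called lower after centring, quantile normalization and cyclic loess (adjusted p = 0.026, 0.011 and 0.024), and ASF1 after centring and quantile normalization (0.031 and 0.019). Centring called 10 of the 16 lower and none higher, beside 33.1% lower over all genes.

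Genes that carry, deposit or exchange histones were read against the same shares, 19.8% lower and 39.6% higher over all genes, or 33.1% and 27.2% after centring. Of 15 chaperone genes 7 fell and 3 rose, or 12 and 0 after array centring. VPS75, which encodes a chaperone that works with the acetyltransferase Rtt109, fell 1.81-fold. MSI1 and CAC2, for subunits of chromatin assembly factor CAF-1, fell 1.40-fold and 1.38-fold. SPT6, a transcription elongation chaperone gene, fell 1.23-fold. The chaperone genes that rose were HIF1 (1.19-fold), NAP1 (1.17-fold) and FPR3 (1.12-fold). Of 19 genes of the SWR1 and INO80 complexes, which insert and exchange H2A.Z, 5 fell and 5 rose, and after centring 10 fell and 1 rose. SWR1, the catalytic subunit gene, fell 1.27-fold, with 10.93, 11.11 and 11.04 in the deletion arrays and 11.34, 11.41 and 11.35 in the wild-type arrays. VPS71 rose 1.39-fold. SWC7 fell at least 1.94-fold, to values under background in the deletion strain. Of 7 other chromatin protein genes, limma called 0 (1 higher at an unadjusted p under 0.05, and 3 lower after centring). Among them CSE4, the centromeric H3 variant gene, had a log2 difference of 0.24 (adjusted p = 0.069).

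Genes of cell-cycle phases other than the histones were read to see what else differed in these cultures, against the same shares of all genes. Of 23 measured S-phase replication genes, 11 fell and 3 rose (16 and 0 after centring), with a median of -0.15. CDC9, the DNA ligase gene, fell 1.66-fold and CLB6, an S-phase cyclin gene, 1.62-fold. PRI1, a primase subunit gene, fell 1.33-fold and RFC5, a clamp loader subunit gene, 1.32-fold. The genes that rose were CLB5, the other S-phase cyclin gene of the list (1.29-fold), RNR1 (1.26-fold) and CTF4 (1.16-fold). Of 12 G1/S genes 10 fell and 1 rose, with TOS4 lower by 0.94 and SWE1 by 0.76 on the log2 scale. Of 11 measured G2/M genes 10 fell and none rose, with a median of -0.67, and the mitotic cyclin genes CLB1 and CLB2 fell 1.97-fold and 1.84-fold. Of 12 genes of the M/G1 interval 8 fell and none rose (11 and 0 after centring), led by DSE1, a daughter-cell gene, at 1.74-fold. All 12 genes of stationary phase and starvation rose (10 after quantile normalization), such as HSP12, 11.5-fold higher, and YGP1, 16.1-fold higher. Their part in the histone differences was not tested.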

How the data were processed

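The authors deposited a linear intensity for each probe set on each array. Per the submitters' processing notes, RMA, affy and R 2.8.0 were used. RMA corrects background, normalizes between arrays and summarises probes, without detection calls, and changes of dim or very bright probe sets can be understated. The deposited arrays still differed, with the median tested gene at a log2 of 11.10 to 11.14 in the deletion arrays and 10.94 to 11.00 in the wild-type arrays. The sources used here do not name the genome build of the annotation, and no coordinates are given.

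All tests used the log2 scale. Of 10928 probe sets, 5498 matched 1 gene of the RefSeq table (R64), and the probe set with the highest mean stood for a gene, which gave 5449. The strain term was fitted alone, with lmFit and eBayes of limma 3.58.1 under R 4.3.3. Standard errors are limma's, or for ratios those of 2 groups with unequal variance. The number of arrays limits the precision. Code was tested on simulated data. The 10 histone genes and all lists were chosen with earlier results of these data known. All histone genes are named, any member of the regulator and SWR1-INO80 lists may be, and of other lists up to 4 called members with the largest change. CSE4, the genes beside the histone loci, and the S-phase replication and chaperone genes that rose were named after their values were seen. Alternatives were scaling, blocks, filters, weights, probe set rules, a pseudocount of 16, spike levels, a threshold of 0.01 and leaving out each array. No 2 arrays held identical values.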

Additional observations from a re-analysis of the deposited data

How the results depend on the processing

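No setting called a histone gene higher. The count of lower histone genes was 2 within the low-spike and 2 within the high-spike arrays, against 5, and 5 to 6 with 1 array left out. Array weights called 7, with HHT2 and HHF1 added, and a variance trend 6, with HHT2 added. HTB1 turned to 0.039 within the high-spike arrays. HHT1 turned to 0.053 with spike level as a block, to 0.15 within the high-spike arrays, and ran from -0.10 to 0.054 with 1 array left out. The core median was -0.41 after array centring. HTA2 over HTA1 was 0.16 after quantile normalization, -0.16 on the mean of the probe sets, -0.0028 within the high-spike arrays and -0.39 on the HTA2 probe set without the several-transcripts ending, added after seeing the data. HTB2 over HTB1 was -0.42 within the low-spike and -0.67 within the high-spike arrays, and HHT2 over HHT1 -0.057 and -0.32. The cause was not tested.

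For all genes, quantile normalization called 1356 higher and 1935 lower, array centring 1803 lower, the stricter threshold 679 lower by construction, the low-spike arrays 1102 higher and 491 lower, and the high-spike arrays 614 lower. Deviations from the strain means correlated at 0.44, -0.51 and -0.44 between same-numbered arrays. Between deletion replicate 2 and wild-type replicate 3 they correlated at 0.75. Such deviations are not independent among the arrays of a strain, so these values cannot show whether the numbers pair the arrays. The fit with the replicate number as a block called 5 histone genes lower, as without it.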

Other observations

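Genes flanking the 6 histone loci, the closest tested one to each side by position in the RefSeq table, were examined after the data were seen. Of these 12 neighbours 6 rose, 1 fell and 5 did not pass, beside 39.6% higher and 19.8% lower over all genes. Of the 12, CRF1 beside HTA1-HTB1 changed most, with mean log2 intensities of 7.90 in the deletion and 5.90 in wild type. It was under background in wild type, so it was at least 2.75-fold higher in the deletion (limma adjusted p = 1.2e-05). On the other side of that locus, ADK1, the adenylate kinase gene, rose by 0.21 on the log2 scale. Beside HTA2-HTB2, UTP20, a ribosome biogenesis gene, had a log2 difference of 2.4e-04 and ECM15 one of 0.49 (adjusted p = 0.18). The neighbour that fell was TBF1, a gene for a telomere-binding factor next to HHO1, at -0.42 (SE 0.09, adjusted p = 0.0069).

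Of 19 genes of histone acetylation and deacetylation, 5 fell and 3 rose, and array centring gave 8 and 3. Over all genes 19.8% fell and 39.6% rose, and 33.1% and 27.2% did after centring. HST4, a sirtuin deacetylase gene, and ESA1, the catalytic subunit gene of the NuA4 acetyltransferase, rose 1.49-fold and 1.43-fold. SAS3, another acetyltransferase gene, fell 1.42-fold. HOS1 rose 1.37-fold, a call that ended after quantile normalization and cyclic loess.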
